A study of Mus musculus with 19 samples.

Results

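The oxidative phosphorylation complexes were followed here through the 94 genes whose symbols begin with Nduf, Uqcr, Sdh, Atp5, Cox4, Cox5, Cox6, Cox7 or Cox8, out of 21086 genes in the table, with 1 pseudogene left out. By name, 38 were complex I subunits, 4 complex II, 8 complex III, 16 complex IV and 15 complex V, and 13 were assembly or other factors. Of the 81 subunits, 75 are made in most tissues and 6 are tissue-restricted isoforms of complex IV or relatives of its subunits (Cox4i2, Cox6a2, Cox6b2, Cox7a1, Cox8b and Ndufa4l2). Polyadenylated RNA was sequenced from 19 mouse lymphomas, each a separate tumour, all carrying the Em-Myc transgene, which expresses Myc in B cells from an enhancer of the immunoglobulin heavy chain locus. Bptf, a subunit of the NURF chromatin remodeller, was present as 1 deleted allele (Bptf+/Δ, called HET below) or as wild type (WT). The extent of the deletion is not given in these sources. The groups were late HET (n = 4, onset at 30 to 66 weeks), early HET (n = 4, 8 to 13 weeks), late WT (n = 5, 28 to 76 weeks) and early WT (n = 6, 9 to 17 weeks). Libraries are named by group and a number that only tells them apart. Mice with late tumours were older, so onset and age cannot be told apart.

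The respiratory chain sits in the inner mitochondrial membrane. Complex I takes electrons from NADH and complex II takes them from succinate, both hand them to ubiquinone, complex III passes them to cytochrome c, and complex IV reduces oxygen, while complex V uses the proton gradient to make ATP. Most subunits are encoded in the nucleus and a few core subunits in mitochondrial DNA, so the complexes are built from transcripts of both genomes. MYC is known to raise mitochondrial gene expression in B cells, and the factors NRF1, GABPA and YY1 are known activators of nuclear respiratory genes.

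Promoters of some subunits are shown first, 1 or 2 from each complex other than complex II. Ndufa6 was taken for its call and the others for their motifs. The share with a motif here is therefore not that of the members, which is counted below. They are the RefSeq promoters (250 bases before to 50 bases after the gene start, GRCm38.p6), and capitals mark matches to CGCATGCG (NRF1), CCGGAAGT (ETS family, GABPA) or AAGATGGC (YY1), searched on both strands. Ndufa6 is the subunit called below and holds none of these motifs, Ndufs7 is shown for YY1, Uqcr11 for NRF1 and the ETS motif, Cox8a for its 2 ETS matches, and Atp5g2 for NRF1.
Ndufa6, complex I, chr15:82354242-82354541, minus strand: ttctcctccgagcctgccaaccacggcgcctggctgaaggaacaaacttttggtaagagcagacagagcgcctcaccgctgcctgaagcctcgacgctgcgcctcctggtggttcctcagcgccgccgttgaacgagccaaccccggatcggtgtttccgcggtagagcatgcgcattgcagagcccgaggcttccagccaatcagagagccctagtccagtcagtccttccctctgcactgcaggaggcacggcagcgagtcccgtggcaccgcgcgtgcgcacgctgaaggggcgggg
Ndufs7, complex I, chr10:80249199-80249498, plus strand: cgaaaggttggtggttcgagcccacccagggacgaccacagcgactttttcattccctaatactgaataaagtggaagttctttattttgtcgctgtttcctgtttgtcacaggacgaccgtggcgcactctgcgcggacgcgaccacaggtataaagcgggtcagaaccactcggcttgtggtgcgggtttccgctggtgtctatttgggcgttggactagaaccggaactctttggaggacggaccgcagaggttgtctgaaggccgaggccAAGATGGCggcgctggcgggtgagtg
Uqcr11, complex III, chr10:80406772-80407071, minus strand: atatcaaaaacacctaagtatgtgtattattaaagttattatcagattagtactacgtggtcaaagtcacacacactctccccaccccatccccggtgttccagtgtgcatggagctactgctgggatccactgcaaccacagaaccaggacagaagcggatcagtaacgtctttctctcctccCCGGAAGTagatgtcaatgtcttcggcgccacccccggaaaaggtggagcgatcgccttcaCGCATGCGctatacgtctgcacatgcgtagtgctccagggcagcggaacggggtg
Cox8a, complex IV, chr19:7217567-7217866, minus strand: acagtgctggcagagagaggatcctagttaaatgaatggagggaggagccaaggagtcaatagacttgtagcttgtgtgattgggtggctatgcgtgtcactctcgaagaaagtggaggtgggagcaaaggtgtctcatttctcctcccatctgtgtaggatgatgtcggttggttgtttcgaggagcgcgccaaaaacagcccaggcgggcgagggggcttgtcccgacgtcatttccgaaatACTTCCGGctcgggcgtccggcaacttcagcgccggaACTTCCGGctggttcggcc
Atp5g2, complex V, chr15:102670998-102671297, minus strand: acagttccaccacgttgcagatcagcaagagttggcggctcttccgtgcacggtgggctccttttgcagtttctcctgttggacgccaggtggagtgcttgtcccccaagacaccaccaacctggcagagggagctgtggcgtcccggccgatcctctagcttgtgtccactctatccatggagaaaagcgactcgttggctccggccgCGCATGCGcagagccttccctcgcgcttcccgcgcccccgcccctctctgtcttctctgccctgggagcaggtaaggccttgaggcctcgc

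The motifs were counted in the 79 of 94 members that were matched to a RefSeq promoter. Promoters on chromosome 18, where Atp5a1 and Ndufa2 lie, were left out of the members and of the background. The NRF1 motif was in 11 of the 79 (13.9%), against 2.07% of the 27025 genes with a promoter on any other chromosome. The YY1 motif was also in 11 (13.9%), against 3.19%. The ETS motif was in 5 (6.33%), against 4.31%, and the E-box CACGTG, a motif bound by MYC and MAX, was in 7 (8.86%), against 8.09%. Of the 79 members, 29 held at least 1 of the 4 motifs. A match is a description of the letters and not a binding site.

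All values are normalised read counts as deposited, that is, gene counts divided by 1 scaling factor per library, and differences are on the log2(value + 1) scale. A gene was tested if its value was at least 1 in at least 4 libraries, which left 19927 genes and all 94 members. A member was called at an adjusted p under 0.05 (limma, Benjamini-Hochberg over all genes tested). Depth was 8297856 to 12497732 reads per library. Bptf was below every WT library in all 8 HET libraries. It had 1573, 408, 1137 and 694 in late HET, 1551, 1432, 1277 and 1521 in early HET, 1681, 2391, 2586, 2087 and 2217 in late WT and a lowest, median and highest of 1665, 2065 and 2480 in early WT. The values 408 and 694 are those of HET_late_2 and HET_late_4. In these libraries all genes with transcripts over 4000 bases had median log2 deviations of -0.71 and -0.33 from their medians over libraries. The part of transcript length in the Bptf values was not tested.

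Some libraries stood apart. HET_late_2 had the steepest relation of expression to transcript length. Over 10158 genes, the deviation of a gene from its median over libraries had a Spearman rho with length of -0.59 in HET_late_2 and of -0.35 to 0.34 in the other 18 libraries. In library order, rho was -0.01, -0.59, -0.22 and -0.35 in late HET and 0.31, 0.18, -0.06 and 0.34 in early HET. It was 0.04, -0.20, 0.01, -0.25 and 0.06 in late WT and -0.02 to 0.25 in early WT. In 16 libraries Eef1a1 took the most reads, and 3 were led by another transcript. HET_early_2 was led by the cartilage collagen gene Col2a1 (566685), WT_early_6 by the salivary gene Bpifa2 (499609) and HET_late_4 by Igha, an immunoglobulin heavy chain constant gene. HET_early_2 also held Acan (142977), Col1a1 (455813) and muscle transcripts (Ckm 22902 and Acta1 92596), and its summed level of 9 pan-B markers was 783, against 8535 to 38120 in the other libraries. Pan-B sums were 13460 to 22060 in late HET, 24430 to 33020 in the early HET libraries other than HET_early_2, 8535 to 36430 in late WT and 23250 to 38120 in early WT, and no pan-B marker was at 0 in any library. Sums of 13 T cell markers were 481 to 10250 in late HET, 1497 to 2084 in early HET, 269 to 9498 in late WT and 194.6 to 2163 in early WT. Single markers weigh heavily in these sums. WT_late_1 had Cd4 at 5375 and Cd8b1 at 2411, but Cd3e at 7.4 and Trac at 12.9. Scores of the T cell markers had medians of 2.35 in late HET, 0.26 in early HET, -0.35 in late WT and -1.45 in early WT. Sums of 8 endothelial markers did not overlap between the HET groups, at 1519 to 3374 in late HET and 3524 to 8728 in early HET, with 2092 to 4106 in late WT and 1669 to 3941 in early WT. Scores of 11 macrophage markers had medians of 1.41 in late HET, -0.15 in early HET, -0.19 in late WT and -0.21 in early WT, and their sums were 5745 to 35480 in late HET, 10830 to 34990 in early HET, 7911 to 42050 in late WT and 6249 to 14300 in early WT. The part of other cell types in the results below was not tested. In bulk tumours, fewer cells of a type and less RNA per cell cannot be told apart.

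Levels per base of transcript, as means over all 19 libraries, differed widely between members. Atp5b, the catalytic beta subunit of the F1 head, had the highest with 8726 normalised reads per kilobase. It was followed by Atp5g2, a gene for the c ring that turns in the membrane, with 7041, by Cox4i1, a regulatory subunit of complex IV, with 5418, and by Atp5a1, the alpha subunit of the F1 head, with 5347. The median level per kilobase was 4954 over the 5 F1 head genes, 4754 over 3 c ring genes and 2147 over 7 stalk and membrane genes of complex V, 3051 over 5 accessory and 1189 over 3 core subunits of complex III, 2945 over 10 widespread complex IV genes, 1310 over the 4 complex II genes, 1007 over 29 accessory complex I subunits and 950.7 over 7 core complex I subunits. The 13 assembly or other factors had a median of 142.3 and the 6 restricted isoforms of 50.48. The lowest was Cox6b2, the testis form of subunit 6b, with 16.27.

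Late tumours had higher subunit transcripts than early tumours in all 5 complexes, but almost all of these differences missed the threshold. Averaged over genotype, the late minus early difference was above 0 for 91 of 94 members, against 44% of all genes (56% were below 0), and its median over the members was 0.45, against -0.08 over all genes tested. By complex the median was 0.47 for complex I, 0.35 for complex II, 0.55 for complex III, 0.53 for complex IV and 0.44 for complex V, and it was 0.31 for the 13 factors. Only Ndufa6 was called (1 of 94, against 0.246% of genes called higher), and no member was called lower, against 0.191% of genes. At an unadjusted p under 0.05, 62 of 94 members were higher and none lower, against 8.8% and 10.2% of genes. On the whole reads recovered from the table, edgeR called 18 of 94 members higher (1.66% of genes) and DESeq2 47 of 93 (7.22%), and neither called a member lower (0.898% and 4.58%).

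**Figure D1:**
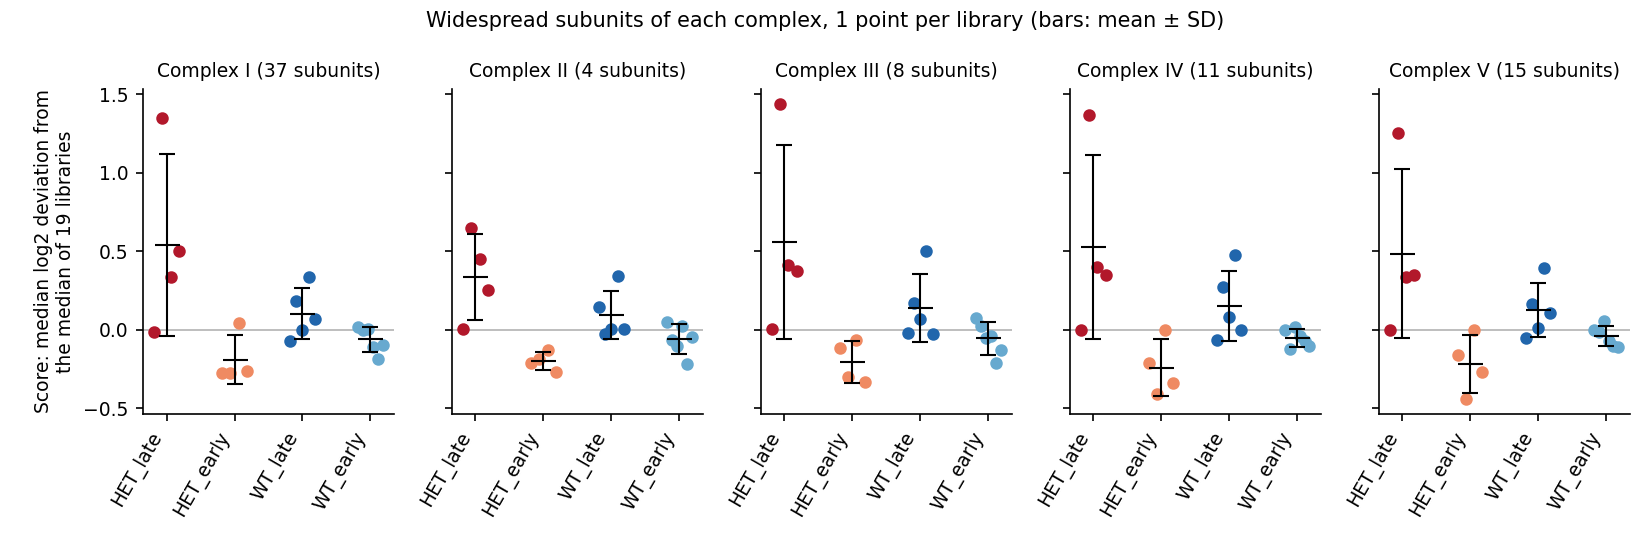
Score of each complex in each library (y axis: median over its widespread subunits of the log2 deviation from the median of 19 libraries), with groups along the x axis, 1 point per library and bars for mean ± SD. In each of the 5 panels HET_late_2 lies above all other libraries, at 1.35 for complex I, 0.65 for complex II, 1.44 for complex III, 1.37 for complex IV and 1.26 for complex V.

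Scores over the widespread subunits put single libraries beside these medians. Complex I scored -0.02, 1.35, 0.33 and 0.50 in the 4 late HET libraries and -0.27, -0.27, 0.05 and -0.26 in the early HET libraries. It scored -0.07, 0.18, 0.00, 0.34 and 0.07 in late WT and had a lowest, median and highest score of -0.19, -0.05 and 0.02 in early WT. HET_late_1 lay with the WT libraries, the other late HET libraries lay above every early library, and late and early WT overlapped. Complex IV scores had means of 0.53 ± 0.59 in late HET (SD, n = 4), -0.24 ± 0.18 in early HET (n = 4), 0.15 ± 0.22 in late WT (n = 5) and -0.05 ± 0.06 in early WT (n = 6).

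In complex I, Ndufa6, an accessory subunit of the LYR family, rose in late tumours. It had 997, 1949, 986 and 1411 in late HET, 519.6, 601, 738 and 522 in early HET, 1082, 819.5, 725, 1032 and 1187 in late WT, and 638, 693 and 847 (lowest, median, highest) in early WT. Every late HET library was above every early HET library, and 7 of 9 late libraries were above every early library, the exceptions being 2 late WT libraries. The difference was 0.78 ± 0.15 (SE), adjusted p = 0.0406 with limma, 0.0334 with edgeR and 2.82e-05 with DESeq2. Leaving out 1 library at a time gave 0.0137 to 0.0802, and the call held only without HET_early_2, HET_early_3, HET_late_1, HET_late_3, WT_late_3 or WT_late_5. The Ndufa6 gene lies at chr15:82350140-82354322 on the minus strand (GRCm38) and its transcript of 382 bases is among the short ones.

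Among the other complex I subunits, Ndufv3, a small subunit of the NADH-binding module, had 717, 1697, 752 and 1119 in late HET, 485, 623, 489 and 514 in early HET, 776, 668, 500.04, 816 and 774 in late WT, and 419, 469.7 and 812 in early WT. The 2 HET groups did not overlap and the 2 WT groups did. The difference was 0.68 ± 0.17, adjusted p = 0.0681 (limma). Ndufb9, an accessory subunit of the membrane arm whose exons overlap those of another gene, had a difference of 0.66 ± 0.17, adjusted p = 0.0653 (limma). The 7 core subunits, which carry the flavin and the iron-sulphur clusters or line the ubiquinone site, ranged from 0.07 ± 0.11 for Ndufs1, the largest, to 0.56 ± 0.15 for Ndufv2. Ndufs7, the core subunit beside the ubiquinone site and the one shown with a YY1 motif, had 0.46 ± 0.17.

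All 4 complex II subunits were measured, and none was called. Sdhb, the iron-sulphur subunit, had 1889.6, 4299, 2099.6 and 2112 in late HET, 1232, 1244, 1708 and 1281 in early HET, 1744, 1882, 1444, 2217 and 1598 in late WT, and 1259, 1443 and 1779 in early WT. All late HET libraries were above all early HET libraries, with a difference over both genotypes of 0.57 ± 0.15, adjusted p = 0.0746 (limma). Sdhd, a membrane anchor, had 0.45 ± 0.14, Sdhc, the other anchor, 0.25 ± 0.11, and Sdha, the flavoprotein that oxidises succinate, 0.23 ± 0.14. Sdha had 3019.5, 3232, 4617 and 2638 in late HET, 2902, 3128, 2729.9 and 2709 in early HET, 3468, 3219, 3328, 3664 and 3184 in late WT, and 1745, 3070.2 and 3496 in early WT. Late and early tumours overlapped within each genotype, every late WT library was above every early HET library, and HET_late_2 did not stand out.

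In complex III the accessory subunits differed more than the core ones in the medians, at 0.70 over 5 accessory and 0.29 over 3 core subunits, and this contrast was not tested. The accessory transcripts had a median length of 474.5 bases and the core ones of 1653, so class and transcript length cannot be told apart here. Uqcrq, the small subunit that binds next to cytochrome b, had 1155, 3309.8, 1541 and 2246 in late HET, 768, 1082, 1016 and 716 in early HET, 1024, 1606, 1177, 1516 and 923 in late WT, and 756, 927 and 1118 in early WT. The HET groups did not overlap and 7 of 9 late libraries were above every early one. The difference was 0.76 ± 0.18, adjusted p = 0.0561 (limma). Uqcr10 had 0.72 ± 0.18 and Uqcr11, shown above with NRF1 and ETS motifs, 0.70 ± 0.19. Among the core subunits, Uqcrfs1, the Rieske iron-sulphur protein, had 0.51 ± 0.17, and Uqcrc2, a long transcript that encodes a structural core protein, had 0.15 ± 0.11.

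In complex IV, all 10 widespread subunits had differences between 0.39 and 0.70. Cox4i1 had 4631, 12273, 3415 and 5937 in late HET, 3028, 2641, 3539 and 2542 in early HET, 4469, 4728, 3505, 4359.5 and 3739 in late WT, and 2887, 3124 and 3462 in early WT. It was the only member in which every late WT library was above every early WT library (1 of 94, against 0.502% of genes), while HET_late_3 overlapped early HET. The difference was 0.70 ± 0.18, adjusted p = 0.0681 (limma), and in the authors' deposited table late against early WT had a log2 fold change of 0.41 and an adjusted p of 0.019, 1 of 2 members called higher there (1.38% of genes). Cox6c had 0.58 ± 0.14, adjusted p = 0.0608, and Cox8a, shown above with 2 ETS matches, had 0.67 ± 0.17, adjusted p = 0.0653 (both limma). Cox7a2l, which links complexes III and IV into supercomplexes, had 0.69 ± 0.18 and was the other member called in the authors' deposited table for WT onset (0.68, adjusted p of 0.0325). Ndufa4, named for complex I but placed in complex IV, had 0.36 ± 0.15.

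In complex V, all 15 subunits had differences above 0, between 0.23 and 0.64. Atp5g2, shown above with an NRF1 motif, had 4793, 7306, 3821 and 5399 in late HET, 3438, 1973, 3091 and 2824 in early HET, 5559, 3791, 3556, 4896 and 6183 in late WT, and 3029.7, 3396 and 4669.8 in early WT. The HET groups did not overlap, the WT groups did, and the difference was 0.64 ± 0.15, adjusted p = 0.0581 (limma). Atp5d, the delta subunit of the central stalk, had 0.62 ± 0.17 and Atp5l, a membrane subunit at the dimer interface, 0.54 ± 0.15, while the abundant Atp5b had 0.24 ± 0.15. Of the 13 factors none was called. Sdhaf1, which helps load the iron-sulphur clusters of complex II, had the smallest p, with 0.58 ± 0.25 and adjusted p = 0.23 (limma).

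**Figure D2:**
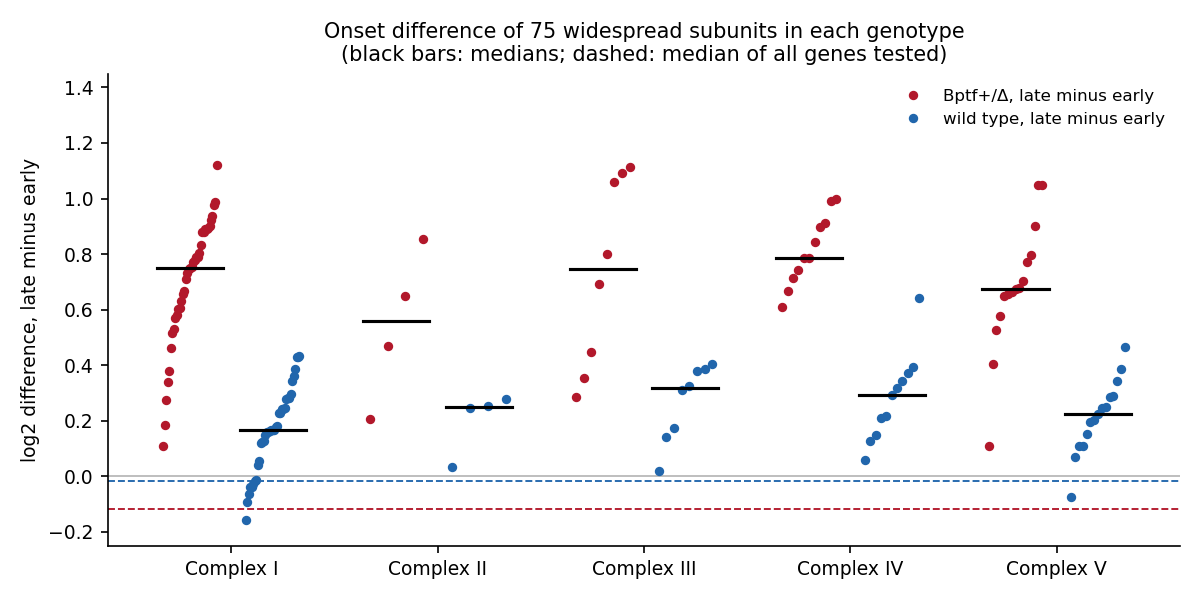
Late minus early log2 difference (y axis) of each of 75 widespread subunits by complex (x axis), within HET tumours and within WT tumours, with black bars for medians and dashed lines for the median of all genes tested. For complex I the median was 0.75 in HET and 0.17 in WT, and all 5 complexes had the higher median in HET.

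Over all subunits, restricted isoforms included, the medians within HET tumours alone were 0.75, 0.56, 0.75, 0.79 and 0.68 for complexes I to V, and the median of all 94 members was 0.69, against -0.12 for all genes. Within WT tumours alone the complex medians were 0.17, 0.25, 0.32, 0.21 and 0.22, and the member median was 0.19, against -0.02 for all genes. Of 94 members, 89 were above 0 in HET, against 43.9% of genes, and 78 were above 0 in WT, against 48.4%. limma called no member in either genotype, against 0% of all genes in either direction. At an unadjusted p under 0.05 it had 67 members higher in late HET, against 8.42% of genes, and 3 members higher in late WT, against 2.41%. For WT onset neither edgeR nor DESeq2 called a member, against 0% and 0.667% of genes called higher. For HET onset edgeR called none, against 0% of genes, and DESeq2 called 51 of 93, against 5.83% of genes called higher. In 28 of 94 members every late HET library was above every early HET library, against 3.51% of genes. The authors' deposited table called 1 member, Ndufa6, for late against early HET (1.39% of genes called higher), with a log2 fold change of 1.31 and an adjusted p of 0.0344.

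The difference between the 2 onset effects was tested as an interaction. It was above 0 for 88 of 94 members, against 46.1% of genes, with a median of 0.49, against -0.07. No member was called by limma or edgeR, against 0% of all genes. DESeq2 also called none, against 0.103% of genes called higher and 0.554% called lower. At an unadjusted p under 0.05 (limma) 10 members were higher, against 2.53% of genes. The smallest p-values were those of Cox7b, a complex IV subunit (0.78 ± 0.29), Ndufa5, an accessory subunit of complex I (0.94 ± 0.36), and Ndufc2, a small membrane-arm subunit (0.80 ± 0.33), each with adjusted p = 0.706 (limma). Ndufa5 had 357, 1082, 474 and 504 in late HET, 214, 334, 271 and 367 in early HET, 294, 415, 341, 399.9 and 282 in late WT, and 319, 338 and 390.3 in early WT. The late HET libraries other than HET_late_1 were above all libraries of the other groups, and HET_late_2 was far above the rest.

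HET_late_2 was the highest of the 19 libraries for 79 of 94 members, against 11.5% of genes. Without it the member median for onset was 0.32, that for HET onset 0.43, and no member was called for onset, with Ndufa6 at 0.68 and adjusted p = 0.0802 (limma). The complex medians for onset without it were 0.32, 0.31, 0.44, 0.39 and 0.28 for complexes I to V. Leaving out HET_late_1 gave 24 calls for onset and 19 for HET onset, without HET_late_3 there were 12 and 7, without WT_late_3 there were 4 and 1, and without HET_early_2 there were 3 and 0. There were 1 and 1 without HET_early_3, 0 and 1 without WT_late_1, 1 and 0 without WT_late_5, and 0 and 0 without any other library. The share of all genes called in these fits is not given here, so the counts are not read as particular to the members.

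In HET_late_2 the median deviation of all genes with transcripts of up to 600 bases was 1.46 and that of genes over 4000 bases was -0.71. HET_late_3, HET_late_4, WT_late_2 and WT_late_4 also had negative rho with length over all genes (-0.22, -0.35, -0.20 and -0.25). These libraries stay in the fits without HET_late_2. Across the 75 widespread subunits, which are not independent replicates, the deviation of HET_late_2 had a Spearman rho with length of -0.57. It was 2.06 for Atp5e, the epsilon subunit of F1, with 421 bases, -0.02 for Uqcrc2 with 1896 bases, -0.01 for Ndufs1 with 2626 bases and 0.03 for Sdha with 2900 bases.

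**Figure D3:**
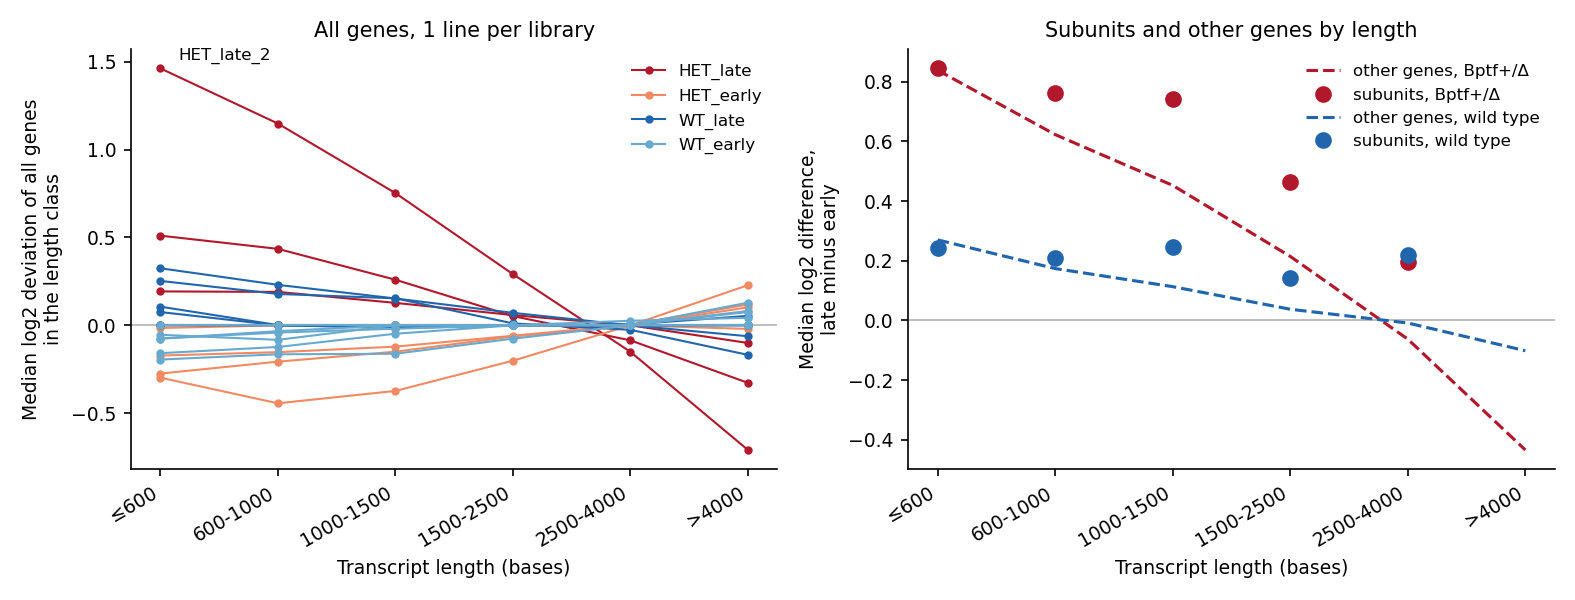
Left, median log2 deviation of all genes in 6 classes of transcript length, 1 line per library coloured by group. Right, median late minus early log2 difference of the widespread subunits (points) and of all other genes (dashed lines) in each length class, within HET and within WT tumours. HET_late_2 is at 1.46 in the shortest class and -0.71 in the longest, and subunits and other genes lie close together in the shortest class.

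Short subunits and other short genes had similar onset differences. Over transcripts of up to 600 bases the median was 0.54 for 25 subunits and 0.54 for 110 other genes. It was 0.47 for 24 subunits and 0.40 for 598 other genes at 600 to 1000 bases, and 0.51 for 11 subunits and 0.26 for 1017 other genes at 1000 to 1500 bases. At 1500 to 2500 bases it was 0.25 for 11 subunits and 0.12 for 2517 other genes, and at 2500 to 4000 bases 0.23 for 4 subunits and -0.04 for 3094 other genes. When each library's trend with length was removed before the fit, the member median for onset was 0.18, against 0.03 for all genes, with 81 of 94 members above 0. The share of all genes above 0 in this fit is not given here, so that count is not read further. The complex medians were then 0.16, 0.28, 0.22, 0.16 and 0.18 for complexes I to V, Ndufa6 had 0.30 with adjusted p = 0.233 (limma), and no member was called, against 0.122% of genes called higher. The part of length, RNA quality or library preparation in the onset result was not tested. The labels name 2 versions of the library protocol with different numbers of amplification cycles, and do not say which library had which.

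By genotype the members differed little. Averaged over onset, the HET minus WT difference had a median of 0.13 over the members, against 0.06 over all genes, and medians of 0.16, 0.04, 0.16, 0.16 and 0.06 for complexes I to V. limma and edgeR called no member, against 0% of all genes in either direction, so these 0 calls are not particular to the members. At an unadjusted p under 0.05 limma had 2 members higher (Cox4i2 and Uqcrb), against 5.16% of genes. DESeq2 called 1, Cox4i2, against 0.1% of genes. Without HET_late_2 the member median was -0.00, and with the length trend removed it was -0.04. In these 2 fits 46 and 34 of 94 members were above 0, against 73 of 94 with all libraries and no correction, where 55.8% of genes were above 0. The share of all genes above 0 in the 2 fits themselves is not given here.

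The genotype difference was taken in each onset class as well, and the interaction above is the test of whether the classes differ. Among late tumours 87 of 94 members were higher in HET, against 51.6% of genes, with a median of 0.37. Among early tumours 21 of 94 were higher in HET, against 55.5% of genes, with a median of -0.13. limma and edgeR called no member in either class, against 0% of all genes. DESeq2 also called none, against 2.34% of genes called higher in early tumours and 0.144% in late tumours. The authors' deposited table called 1 member, Cox4i2, for late tumours (0.0803% of genes called higher). At an unadjusted p under 0.05 limma had 19 members higher in late HET, against 2.67% of genes, and none in early HET, against 7.39%. Without HET_late_2 the late median was 0.12. No member had every late HET library above every late WT library, against 0.477% of genes. Uqcrb, a small complex III subunit that overlaps another gene on the opposite strand, had the smallest p for genotype among the widespread subunits, with 0.38 ± 0.17 and adjusted p = 0.493 (limma). It had 764, 1834, 959 and 812 in late HET, 747, 1038, 727 and 724 in early HET, 686, 721, 759, 896 and 637 in late WT, and 449, 729 and 804 in early WT, with overlap between HET and WT in both onset classes.

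Of the 6 tissue-restricted isoforms 3 had onset differences above 0, against 44% of genes, with a median of -0.05. All 6 had HET minus WT differences above 0, against 55.8% of genes, with a median of 1.16 and no call by limma (0% of all genes). Quantile normalisation turned the genotype difference of Cox7a1 and Cox6b2 below 0. Without HET_early_2 the genotype difference was -0.34 for Cox7a1, 0.02 for Cox6b2 and 0.17 for Ndufa4l2. It was then 1.02 for Cox8b, 1.47 for Cox4i2 and 1.53 for Cox6a2. Cox4i2, the lung isoform of subunit 4 known for its response to low oxygen, had 8.7, 37.4, 142 and 117 in late HET, 19.6, 152, 10.6 and 4.2 in early HET, 3.7, 15.3, 8.4, 8.5 and 3.5 in late WT, and 2.0, 9.3 and 14.2 in early WT. Of 8 HET libraries, 5 were above every WT library. The HET minus WT difference was 1.95 ± 0.62, with adjusted p = 0.493 with limma, 0.341 with edgeR and 0.0108 with DESeq2. In the authors' deposited table it had a log2 fold change of 2.84 and an adjusted p of 0.00377 for HET against WT, where 2 members were called higher (0.319% of genes), and 3.27 and 0.0371 for late HET against late WT. Without HET_early_2 the limma difference was 1.47, and without the 3 libraries led by another transcript it was 1.27.

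Cox6a2, the heart and skeletal muscle isoform of subunit 6a, had 133, 15.8, 1386 and 63.2 in late HET, 2.8, 1062, 46.5 and 100.2 in early HET, 23.1, 20.4, 2.4, 648 and 21.2 in late WT, and 3.5, 5.9 and 65.9 in early WT. A single library was high in each of late HET, early HET and late WT, and none in early WT. The HET minus WT difference was 2.19 ± 1.08, with adjusted p = 0.493 with limma, 0.367 with edgeR and 0.187 with DESeq2, while the authors' deposited table gave 4.01 and an adjusted p of 0.00298. The exons of Cox6a2 overlap those of Itgad on the opposite strand, and Itgad had 245 in HET_late_3, 0 in HET_early_2 and 143 in WT_late_4. Itgad also had 151 in HET_late_2, where Cox6a2 had 15.8. Without strand, reads of the pair cannot be told apart in their shared part.

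**Figure D4:**
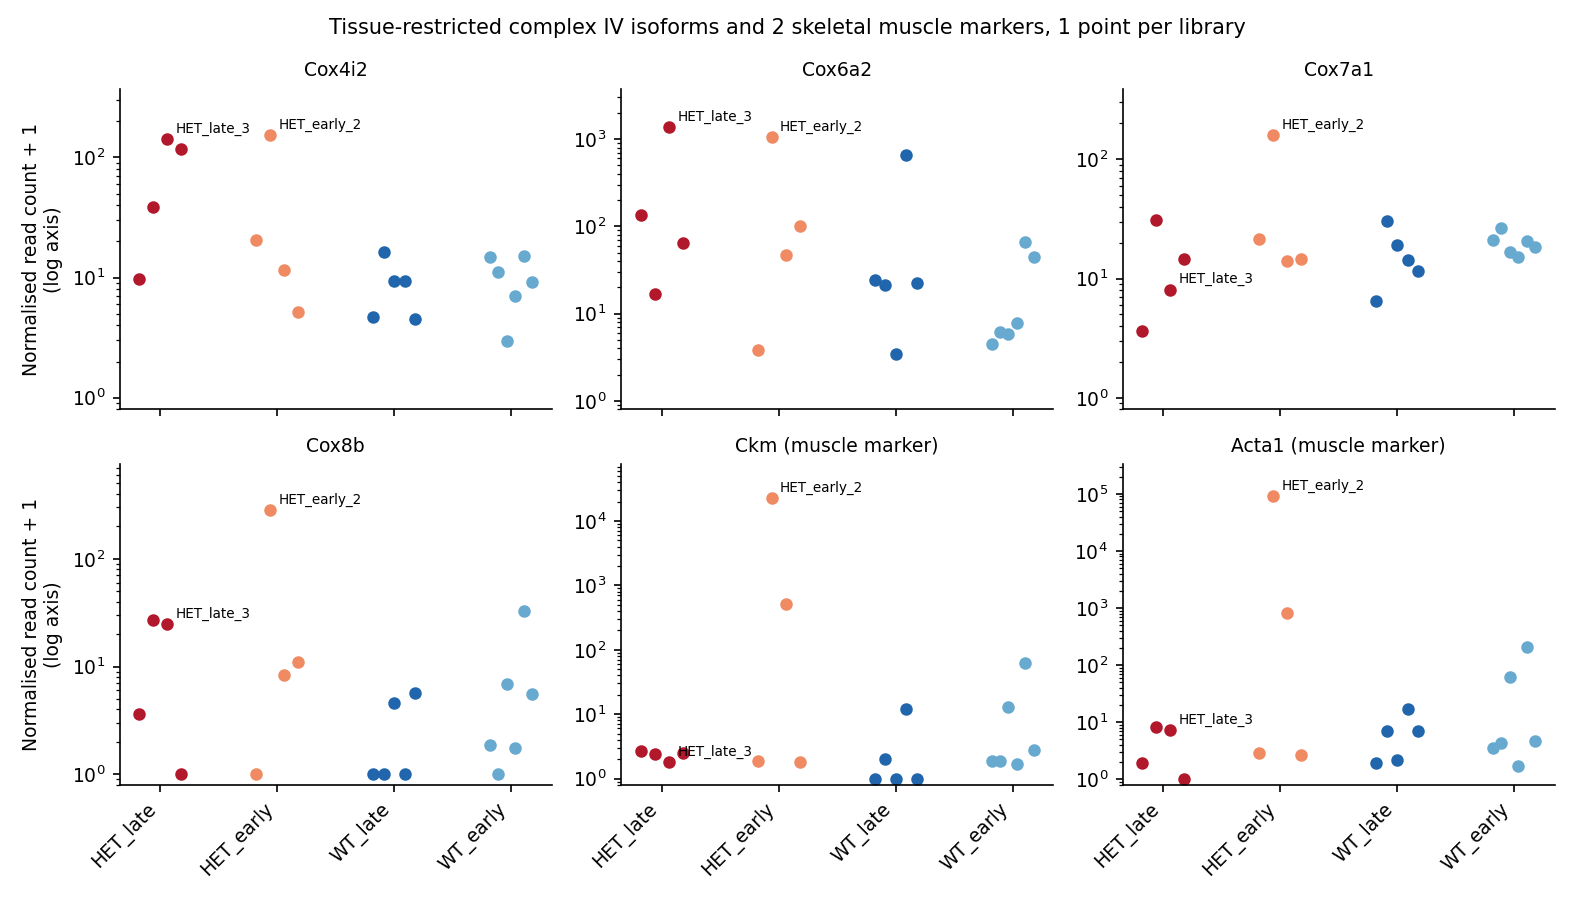
Normalised read count + 1 (log axis) of Cox4i2, Cox6a2, Cox7a1 and Cox8b, which are restricted isoforms of complex IV, and of the muscle genes Ckm and Acta1, by group with 1 point per library. HET_early_2 is high in all 6 panels, while HET_late_3 is high for Cox6a2 (1386) and Cox4i2 (142) with Ckm at 0.8.

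Muscle and cartilage transcripts were high in the same early HET library. In HET_early_2, where Ckm, the muscle creatine kinase, had 22902 and Acta1, skeletal muscle actin, had 92596, the muscle isoforms Cox7a1 and Cox8b had 159.5 and 282. The other 18 libraries had 2.6 to 30.2 for Cox7a1 and 0 to 32.0 for Cox8b, HET_early_3 included, where Ckm had 510.2 and Acta1 had 803. In HET_late_3 and WT_late_4, the other libraries with high Cox6a2, Ckm had 0.8 and 10.9 and Acta1 had 6.3 and 15.7. The summed level of the 11 of 13 listed skeletal muscle markers in the table was 102.3 to 537 in late HET, 96.8 to 309700 in early HET, 90.7 to 250.6 in late WT and 119.6 to 898 in early WT. Without HET_early_2 the Cox6a2 difference by genotype was 1.53 and that of Cox7a1 was -0.34, against 0.07 with it. Ndufa4l2, a paralogue of Ndufa4 induced by low oxygen, had 223 in HET_early_2 and 12.0 to 83.5 elsewhere, and overlaps the highly expressed Shmt2 on the opposite strand. Cox6b2 had 0.8 to 22.6.

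The mitochondrial DNA-encoded subunits were read beside the nuclear ones. Of 13 listed, 11 were in the table and 4 of these (mt-Nd3, mt-Co2, mt-Co3 and mt-Atp6) had at most 5.2 normalised reads in every library, so their differences lie at the floor and are not read. The other 7 had a mean of at least 50, a limit set after seeing the values. None was called for onset by limma, and all 7 were above 0 with a median of 0.22. That direction turned with quantile normalisation (1 of 7 above 0, median -0.17) and with the length trend removed (3 of 7 above 0, median -0.00). mt-Nd6, a complex I subunit, had 0.41 ± 0.17 and mt-Co1, the catalytic subunit of complex IV, 0.22 ± 0.19. In HET_late_2 the score of the 7 genes was -0.04 where that of the 75 nuclear subunits was 1.34. Single mitochondrial genes went both ways there. Its mt-Co1 of 28103 was the lowest of the 19 libraries, against 39901 to 92216 in the others, and its mt-Nd6 of 20171 was the highest, against 5151 to 11203 in the others. In HET_late_4 and WT_late_4 both scores were above 0, at 0.35 and 0.08 for the mitochondrial and 0.43 and 0.39 for the nuclear subunits. The scores parted in other libraries as well. The mitochondrial score reached 0.62 in a late WT library other than WT_late_4, while no late WT nuclear score was above 0.39. It reached 0.36 in early HET, where no nuclear score was above 0.

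**Figure D5:**
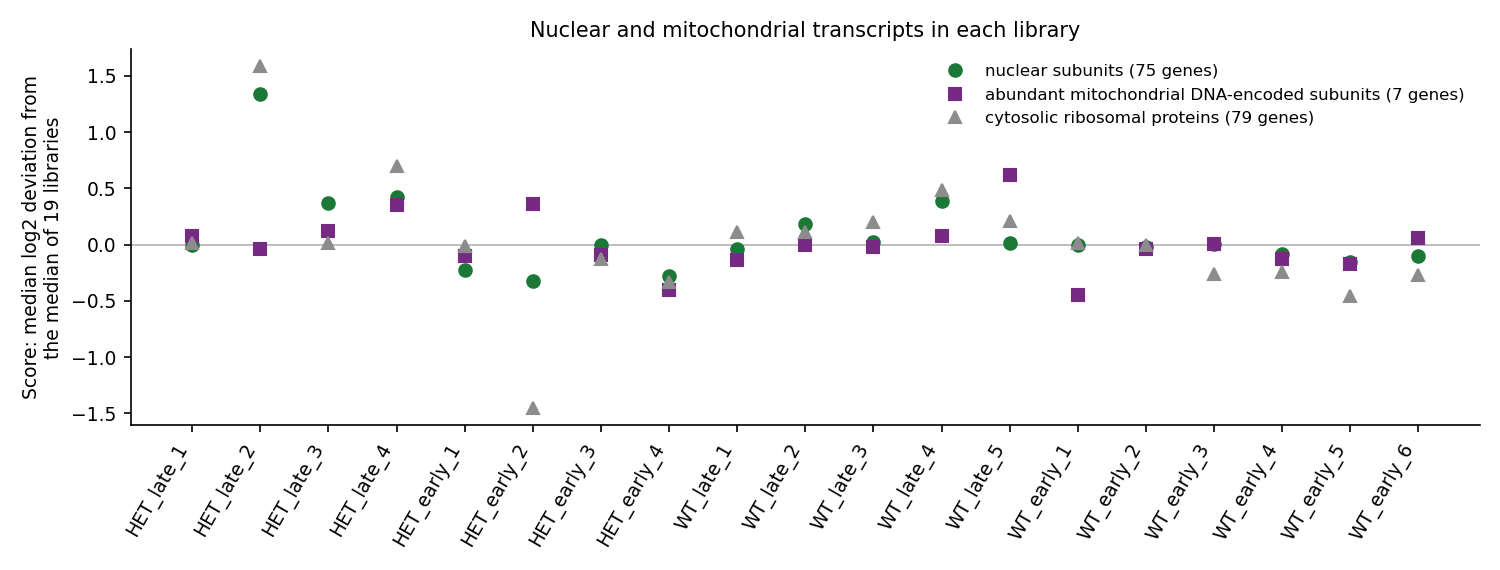
Score (y axis: median log2 deviation from the median of 19 libraries) of the nuclear subunits, the 7 abundant mitochondrial DNA-encoded subunits and the cytosolic ribosomal proteins in each library (x axis). In HET_late_2 the nuclear subunits are at 1.34 and the ribosomal proteins at 1.58, with the mitochondrial DNA-encoded subunits at -0.04.

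Other genes of the pathway gave 0 calls for onset with limma. Among electron carriers and ubiquinone synthesis genes, 2 of 16 were higher at an unadjusted p under 0.05, against 8.8% of all genes, and the median was 0.23, against -0.08 over all genes. Etfb, which feeds electrons from fatty acid oxidation to ubiquinone, had 0.69 ± 0.23, and Cycs, cytochrome c, had 0.24 ± 0.16. Among 28 assembly factors outside the naming rule the median was 0.14 and 5 were higher at that level, with Uqcc3 at 0.74 ± 0.19 and Cox14 at 0.89 ± 0.24. Tricarboxylic acid cycle genes had a median of 0.12 over 13 genes, with Fh1, fumarase, at 0.61 ± 0.18. A list of 10 tested genes of ATP and metabolite exchange had a median of 0.40, with 5 higher at that level. It holds the phosphate carrier Slc25a3 (0.41 ± 0.12), 2 adenine nucleotide carriers, 3 outer membrane channels of the Vdac family, 2 uncoupling proteins, the ATP synthase inhibitor Atpif1 and Usmg5, a complex V subunit outside the naming rule.

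The regulators of mitochondrial biogenesis had a median of -0.10 over 15 genes. Ppargc1a and Ppargc1b, coactivators known to drive respiratory genes, had -1.89 ± 0.66 and -0.75 ± 0.23, with adjusted p = 0.142 and 0.106 (limma). Ppargc1a had 82.7 in WT_early_6, 21.3 in HET_early_2 and 0 to 12.6 in the other 17 libraries, and without the 3 libraries led by another transcript its difference was -1.16. Nrf1 had -0.10 ± 0.18. Ribosomal protein genes, which also have short transcripts, had medians above 0. The 79 cytosolic ribosomal protein genes of high level had a median of 0.76 with 3 called higher, and 76 mitochondrial ribosomal protein genes had a median of 0.38 with 1 called higher, against 0.246% of all genes.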

How the data were processed

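The table holds, per the file headers, normalised expression of 21086 genes in 19 libraries. From its values, the deposited signal is gene counts over 1 scaling factor in each library: 100% of values gave whole reads within 0.01 reads, and these reads were recovered. The submitters' processing notes name TopHat2 2.1.1, the Cufflinks suite 2.2.1 with Cuffdiff and Cuffnorm, FastQC 0.11.5, and the builds GRCm38 and mm10. They do not say which tool made the table, with what annotation or strand setting. For 5 comparisons the authors deposited log2 fold changes and adjusted p-values, and the signs of the fold changes were checked against group means. Over genes with larger fold changes and values, 90.14% of signs matched for HET against WT. In the other comparisons 99.92% to 100% matched. Per the labels' protocols, polyadenylated RNA was made into TruSeq libraries and sequenced on a Genome Analyzer IIx.

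The signal is not counts, so log2(value + 1) was fitted in limma 3.58.1 (R 4.3.3), with 4 group means in 1 fit. Values of 1 or more in 4 or more libraries were required, and p-values were adjusted over all 19927 genes left. On recovered reads, edgeR 4.0.16 (quasi-likelihood) called 331 genes higher and 179 lower for onset, and DESeq2 1.42.0 called 1135 and 720. Reads were amplified and carry no molecular identifiers, so depth covers counting error only. P-values measure the spread between tumours.

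Transcript lengths came from GENCODE M21 (GRCm38). Of the 94 members, 28 have exons that overlap another gene, and without strand such reads cannot be told apart. The trend with length was a lowess fit for each library (span 0.3). The 3 subunits of each complex with the smallest p for onset and 2 for genotype were named, with all Sdh subunits, the restricted isoforms and their partners, 3 factors, 3 for the interaction and 2 of each pathway list. Genes shown for a promoter motif, for length or as background were added after values were seen. The members and lists were chosen with earlier results of these data known. Scripts were tested on simulated data. Alternatives were other scalings, pseudocounts, filters and tests, weeks of onset, and libraries left out.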

Additional observations from a re-analysis of the deposited data

Results flagged for a closer look

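In 168 groups of 4 to 6 libraries, 13 values lay far from the rest of their group by Dixon's test, and chance alone gives about 1 in 20 such groups. HET_late_2 gave 3 of them, with Sdhb at 4299, Uqcr10 at 4072 and Atp5d at 6094 normalised reads, each the highest of late HET. In early HET, HET_early_3 was highest for the complex I score (0.05), Sdhb (1708) and Uqcr11 (1091), and HET_early_2, the library with muscle transcripts, was highest for Uqcrb (1038). Cox6c was highest in WT_late_5 (2682) among late WT and in WT_early_5 (2382) among early WT. In early WT, Sdha was lowest in WT_early_3 (1745) and Ndufc2 highest in the same library (1102), and WT_early_2 stood apart for Cox6a1 (1795) and Ndufaf3 (89.64).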

How the results depend on the processing

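The calls for onset depended on the test and on single libraries, while the sign of the member medians for onset held. For onset, DESeq2 called 47 members and edgeR 18, against 1 with limma, and 0 were called with the length trend removed, with log2 weeks of onset, without HET_early_2 and HET_late_2, or without the 3 libraries led by another transcript. For HET onset, DESeq2 called 51, and scaling by TMM or quantile normalisation 1 each. DESeq2 called 1 for genotype. Leaving out 1 library gave 0 to 24 for onset and 0 to 19 for HET onset. The share of all genes called with 1 library left out, with TMM or with quantile normalisation is not given here. The length trend and the paired omission of HET_early_2 and HET_late_2 were alternatives chosen after seeing the data.

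With the length trend removed, the onset medians were 0.16 for complex I, 0.22 for complex III and 0.16 for complex IV, and the member medians were 0.31 for HET onset and 0.07 for genotype in late tumours. Per doubling of weeks of onset, the median was 0.13 for complex II and 0.24 for complex III. Without HET_early_2 and HET_late_2 the HET onset median was 0.37. Quantile normalisation moved the median of all genes for HET onset to 0.04, against -0.12, and that of the members to 0.71.

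Among the named genes, signs turned for 7. Sdhc genotype was -0.03 with the length trend removed and -0.01 without both libraries. Cox6b2 onset was 0.06 with quantile normalisation, 0.21 without the 3 libraries and -0.57 to 0.05 with 1 library left out. Cox6b2 genotype was -0.02 with quantile normalisation and -0.10 without both libraries. Cox7a1 genotype was -0.12 with length removed, -0.25 with quantile normalisation, -0.60 without both libraries, -0.42 without the 3 and -0.34 to 0.33 with 1 left out. Cox8b onset was 0.30 without the 3 libraries. With length removed, Ndufa4 onset was -0.08 and mt-Nd6 onset -0.00. Ndufa4l2 onset was -0.05 with DESeq2, -0.16 with length removed and -0.13 to 0.51 with 1 left out, and Ndufa4l2 genotype was -0.00 without both libraries. The cause was not tested. Of 1694 alternative values for named genes, 1583 kept their sign and side of the threshold. No paired analysis was made, because each library is a separate tumour and the labels name no pairs.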
